A study of Mus musculus with 15 samples.

Results

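The extracellular matrix genes described here are 38 genes for matrix proteins other than collagens: glycoproteins, proteoglycans and laminins. They were taken by symbol from a list, out of 55416 genes in the files, and each of the 38 symbols matched 1 gene. The list was chosen with earlier results of these data known. Counts of members called, set below beside shares over all genes, are therefore a description and not independent support. By function, 28 were placed in the interstitial matrix, which fibroblasts lay down between muscle fibres, and 10 in the basement membrane, the thin sheet that wraps each fibre and vessel. RNA was sequenced from the tibialis anterior (TA), the muscle along the shin, of male C57BL/6 (C57BL/6NCrlOri) mice aged 6 to 8 weeks. The 5 control libraries came from mice without tumour. All other mice had 5000000 cells of the tumour line KrasIKKaL placed in the trachea. Of these, 4 libraries came from mice given a rat isotype IgG (written anti-IgG in one label), 3 from mice given an antibody against PD-L1, a checkpoint ligand that restrains T cells (200 µg per kg), and 3 from mice given an antibody that binds CD8a, found on cytotoxic T cells (200 µg). The latter 2 antibodies were injected into the abdomen 3 times a week, and the labels give no dose for the IgG. The labels name no injection for control mice, so tumour and injected antibody cannot be told apart in any comparison with control. Nor do they tie each library to its own mouse, so the p-values measure the spread between these libraries.

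Matrix proteins are secreted and assemble outside the cell. In the interstitium, small leucine-rich proteoglycans such as decorin bind collagen fibrils and set their spacing, fibrillins and elastin build elastic fibres, and fibronectin and the matricellular proteins link matrix to cells. In the basement membrane, laminin trimers of an alpha, a beta and a gamma chain polymerise on receptors of the fibre surface, dystroglycan and integrin alpha 7 among them, and nidogens and perlecan tie the laminin sheet to collagen IV. Loss of the laminin alpha 2 chain causes a congenital muscular dystrophy, and matrix in muscle is made largely by fibroblasts, with shares from vessel cells and the fibres themselves.

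Levels can be compared between genes only per length, in the deposited TPM, which divides by gene length and library size. In control muscle Dcn (ENSMUSG00000019929), the gene of decorin, stood highest at 372 ± 88.5 TPM (SD, n = 5), above Sparc (ENSMUSG00000018593), a collagen-binding matricellular protein, at 173 ± 37.4 TPM. The next, Sparcl1, Pcolce, Bgn and Mfap5, lay at 42.6 ± 11.9, 31.3 ± 5.44, 30.8 ± 5.65 and 28.5 ± 9.09 TPM and did not differ beyond their spread. Among basement membrane genes Lamc1 (ENSMUSG00000026478), the gamma 1 chain of most laminins, and Hspg2 (ENSMUSG00000028763), which encodes perlecan, led with 19.9 ± 3.34 and 19.5 ± 3.48 TPM. Of the 38 genes, 37 passed the filter on low counts. Fbn2, a fibrillin of early development, had at most 3 counts in a library and was not tested.

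RefSeq (GRCm38.p6) promoter windows were matched for 25 of the 38 genes, 18 interstitial and 7 basement membrane. Shown here, to set a regulatory sequence of each class beside the values that follow, are the 250 bases before the gene start of the 2 interstitial and 2 basement membrane genes of highest mean TPM over the 15 libraries that had a window. Each is written along the strand of its gene, and capitals mark matches, on either strand, to TATAAA (the TATA box), GGGCGG (the GC box) and CAGAC (a SMAD-binding element). Adjoining matches run together.
Sparc, minus strand, chr11:55420081-55420330: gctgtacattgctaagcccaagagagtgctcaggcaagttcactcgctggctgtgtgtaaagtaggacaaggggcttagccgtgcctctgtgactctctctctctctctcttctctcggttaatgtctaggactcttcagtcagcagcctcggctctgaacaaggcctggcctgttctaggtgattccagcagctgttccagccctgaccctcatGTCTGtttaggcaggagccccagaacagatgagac
Bgn, plus strand, chrX:73483351-73483600: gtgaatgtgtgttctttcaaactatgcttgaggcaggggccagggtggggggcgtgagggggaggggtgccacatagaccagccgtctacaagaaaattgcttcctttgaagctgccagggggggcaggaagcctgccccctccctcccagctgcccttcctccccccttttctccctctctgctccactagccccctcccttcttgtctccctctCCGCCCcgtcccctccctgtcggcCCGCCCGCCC
Lamb2, plus strand, chr9:108479612-108479861: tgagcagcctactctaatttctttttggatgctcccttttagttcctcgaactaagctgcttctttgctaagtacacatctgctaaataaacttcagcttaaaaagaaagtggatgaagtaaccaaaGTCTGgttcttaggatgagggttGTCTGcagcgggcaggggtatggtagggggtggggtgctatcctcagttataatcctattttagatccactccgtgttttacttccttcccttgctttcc
Hspg2, plus strand, chr4:137468553-137468802: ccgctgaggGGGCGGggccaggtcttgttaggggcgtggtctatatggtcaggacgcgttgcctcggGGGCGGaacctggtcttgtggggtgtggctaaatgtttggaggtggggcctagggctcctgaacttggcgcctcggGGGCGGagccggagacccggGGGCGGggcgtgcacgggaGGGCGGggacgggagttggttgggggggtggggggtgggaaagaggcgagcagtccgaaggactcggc
Hspg2 had 5 matches, all to GGGCGG, and Bgn 3, also to GGGCGG. Lamb2 and Sparc held CAGAC, 2 times and 1 time. GGGCGG was found in 10 of 18 interstitial windows and 5 of 7 basement membrane windows, against 32.7% of 32851 windows of all genes. The median share of G and C was 58.8% and 64.4% in the windows of these classes, against 52.4% over all windows. Its part in the GGGCGG shares was not tested. CAGAC was found in 8 of 18 and 4 of 7 (42.2% of all), and TATAAA in 3 of 18 interstitial windows and no basement membrane window (12.4% of all). A match is a run of letters and not a known binding site, and these shares rest on few windows.

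The libraries held 15894822 to 22459370 expected counts. On the first principal component, 56.1% of the variance, IgG replicate 2 lay at 38, nearest to control within its group (others 77.4 to 92.3), and anti-PD-L1 replicate 2 at 60.5 lay farthest from control within its group (4.98 and 22.9 for the others). The 12 muscle fibre markers were all detected, at a summed level of 87923 to 164227 CPM (counts scaled to library size by TMM) over all libraries, as the tissue label says. Scaling matters here: upper-quartile factors moved the median log2 fold change of all genes from -0.02 to -0.27 in IgG against control, from 0.01 to 0.12 in anti-PD-L1 against IgG and from 0.02 to 0.25 in anti-CD8a against IgG. The calls over all genes in those comparisons then went from 4335 higher and 4075 lower to 3239 and 5527, from 569 and 222 to 727 and 126, and from 3333 and 3569 to 4628 and 2552. They went from 2990 and 1999 to 2134 and 2661 in anti-PD-L1 against control, and from 1738 and 1099 to 1232 and 1502 in anti-PD-L1 against anti-CD8a. DESeq2 split 877 to 910 in anti-PD-L1 against IgG.

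IgG against control compared muscle of tumour-bearing mice with muscle of mice without tumour. Most matrix genes fell. Of the 27 interstitial genes tested, 19 fell and 1 rose, and of the 10 basement membrane genes 5 fell and 1 rose. Spon2 alone had 10 or more counts only in control, so its place among the tested genes came from the group where it was high and its falls are no support. Without it, a recount chosen after its values were seen, 18 of 26 interstitial genes fell. Over all genes tested, 28.4% were called lower and 30.2% higher. The median log2 fold change was -1.21 over the interstitial genes and -0.60 over the basement membrane genes, beside -0.02 over all genes. Spon2 was kept in this and the later interstitial medians, which were not recalculated without it. Fewer cells of a type and less RNA per cell cannot be told apart in such tissue RNA. Each of the 26 calls was kept under all 16 alternatives. Fibroblast markers were lower in IgG too, summing to 212 to 262 CPM against 388 to 570 CPM in control, and their part in the result was not tested. Below, the CPM of a gene are listed in replicate order, and each change is a log2 fold change ± SE with the adjusted p of edgeR's quasi-likelihood test.

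**Figure D1:**
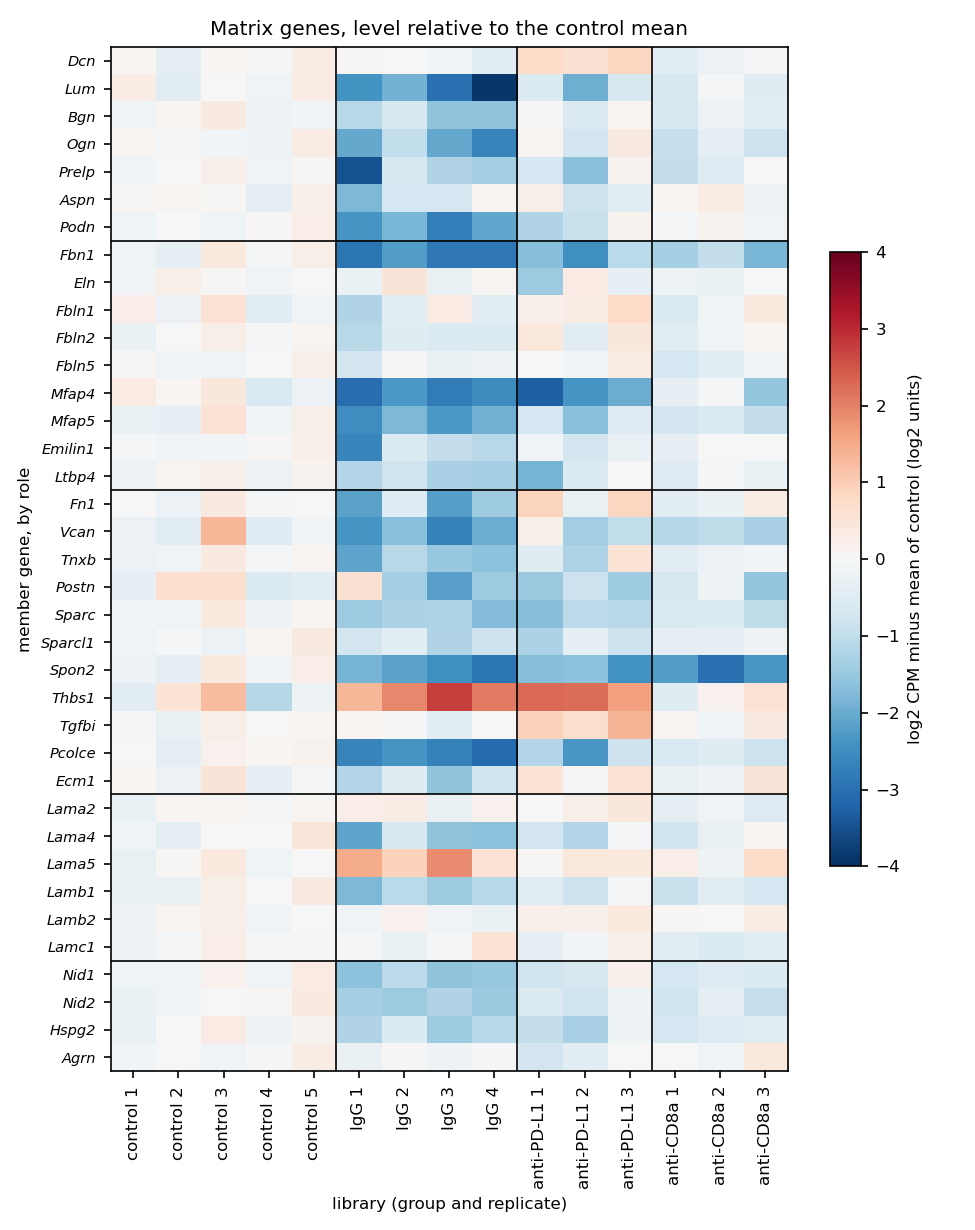
Level of the 37 tested matrix genes in each of the 15 libraries, as log2 CPM minus the mean of the 5 control libraries (colour scale in log2 units), with genes grouped by role and lines between groups. The IgG columns are blue for most genes, red for Thbs1 and Lama5, and near white for genes such as Dcn, Eln, Tgfbi, Lama2, Lamb2, Lamc1 and Agrn.

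Among the 7 small leucine-rich proteoglycans, 5 fell (Lum, Bgn, Ogn, Prelp and Podn), and the most abundant one did not. Dcn had 654, 478, 658, 596 and 753 CPM in the control libraries, 637, 629, 581 and 457 in IgG, 1053, 957 and 1132 in anti-PD-L1 and 458, 525 and 590 in anti-CD8a. Control and IgG overlapped, the 3 anti-PD-L1 libraries stood above all others, and anti-CD8a lay within the range of the other groups. The change of Dcn in IgG against control was -0.12 ± 0.15 (SE, adjusted p = 0.49) in log2, and -0.38 (adjusted p = 0.0486) with upper-quartile scaling. Lum (ENSMUSG00000036446), lumican, which like decorin binds collagen fibrils, had 45.1, 27.3, 37.6, 32.5 and 44.8 CPM in the control libraries, 6.89, 9.87, 4.6 and 2.38 in IgG, 24.5, 9.38 and 23.8 in anti-PD-L1 and 23.4, 34.7 and 26.5 in anti-CD8a. All 4 IgG libraries lay below every control library, and the change was -2.66 ± 0.35 (SE, adjusted p = 1.53e-05), while anti-PD-L1 replicate 2 lay just under the highest IgG library.

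Podn (ENSMUSG00000028600), podocan, had 6.9, 7.9, 6.9, 8.11 and 9.36 CPM in the control libraries, 1.43, 2.11, 1.07 and 1.77 in IgG, 3.34, 4.16 and 8.62 in anti-PD-L1 and 7.52, 8.64 and 7.13 in anti-CD8a. It was lower in each IgG library than in any library of the other groups, at -2.29 ± 0.27 (SE, adjusted p = 5.87e-06) against control. Bgn (ENSMUSG00000031375), biglycan, the closest relative of decorin in the family, had 54, 65.4, 78.2, 52.2 and 55.8 CPM in the control libraries, 27.9, 38.9, 19.7 and 19.5 in IgG, 62.7, 40 and 65.6 in anti-PD-L1 and 38.5, 51.4 and 44.2 in anti-CD8a. IgG lay below control without overlap (-1.21 ± 0.21, adjusted p = 0.000197), while the highest IgG library, replicate 2, slightly exceeded the lowest anti-CD8a library. Ogn (osteoglycin) and Prelp fell, at -1.82 ± 0.29 and -1.39 ± 0.41 in log2, and Aspn (asporin) stood at -0.64 ± 0.28 (SE, adjusted p = 0.0639). Aspn was called lower under 5 alternatives: at -0.88 (adjusted p = 0.0164) with upper-quartile scaling, -0.65 (0.0228) with no filter, -0.64 (0.0441) by DESeq2, -0.74 (0.0457) without control replicate 4 and -0.98 (0.00651) without IgG replicate 4. Prelp in IgG ran from 2.92 CPM in replicate 1 to 21.4 in replicate 2.

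Of 9 tested genes of microfibrils and elastic fibres, 6 fell in IgG. Fbn1 (ENSMUSG00000027204), the main fibrillin of adult tissue, had 54.2, 46.2, 79.1, 58.4 and 71.3 CPM in the control libraries, 7.88, 12.8, 8.25 and 8.37 in IgG, 18.4, 11 and 28.6 in anti-PD-L1 and 24, 31.5 and 17.2 in anti-CD8a. No IgG library reached any control or anti-CD8a library, and the change against control was -2.73 ± 0.28 (SE, adjusted p = 1.68e-06). Mfap4 (ENSMUSG00000042436), a microfibril-associated protein, had 8.02, 6.72, 8.86, 4.16 and 5.44 CPM in the control libraries, 0.683, 1.2, 0.819 and 1.04 in IgG, 0.572, 1.16 and 1.54 in anti-PD-L1 and 5.07, 6.23 and 2.13 in anti-CD8a. IgG and anti-PD-L1 were both low and overlapped, and control and anti-CD8a were both high apart from anti-CD8a replicate 3, at 2.13 CPM (-2.81 ± 0.36, adjusted p = 1.2e-05 for IgG against control).

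Mfap5 (ENSMUSG00000030116), another microfibril protein, had 22.4, 21.8, 40.7, 24.4 and 32.1 CPM in the control libraries, 4.84, 7.7, 5.55 and 7.15 in IgG, 16.8, 8.53 and 19 in anti-PD-L1 and 16.1, 19 and 14.2 in anti-CD8a. Its log2 fold change in IgG was -2.16 ± 0.25 (SE, adjusted p = 5.06e-06), with no overlap between IgG and control. Ltbp4 (ENSMUSG00000040488), which holds latent TGF-beta in the matrix and helps elastic fibre assembly, had 60.3, 75.6, 83.6, 59.6 and 77.4 CPM in the control libraries, 31, 40.3, 28.7 and 28 in IgG, 19.5, 47.7 and 70.5 in anti-PD-L1 and 49.3, 68.3 and 59.2 in anti-CD8a. IgG lay below control in every library (-1.16 ± 0.26, adjusted p = 0.00141), and the anti-PD-L1 libraries spread from below every IgG library to within the control range. Emilin1 and Fbln2 fell, at -1.18 ± 0.30 and -0.67 ± 0.19. Elastin itself, Eln, stood at 0.05 ± 0.26 (SE, adjusted p = 0.881), and Fbln1 and Fbln5 at -0.38 ± 0.29 (SE, adjusted p = 0.275) and -0.28 ± 0.16 (SE, adjusted p = 0.159). With upper-quartile scaling Fbln5 was called lower, at -0.52 (adjusted p = 0.0211).

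Of the 11 adhesive and matricellular genes, 8 fell in IgG and 1 rose, or 7 and 1 of 10 without Spon2. Sparc had 340, 339, 484, 320 and 394 CPM in the control libraries, 134, 153, 156 and 111 in IgG, 113, 179 and 170 in anti-PD-L1 and 251, 256 and 183 in anti-CD8a. The IgG libraries lay under all control and anti-CD8a libraries, and the change against control was -1.44 ± 0.18 (SE, adjusted p = 8.3e-06). Its relative Sparcl1 (ENSMUSG00000029309) had 105, 113, 98, 123 and 150 CPM in the control libraries, 69.9, 84.6, 50 and 65.5 in IgG, 48.1, 89.3 and 65.7 in anti-PD-L1 and 91.3, 89.9 and 100 in anti-CD8a. The change was smaller, -0.80 ± 0.18 (SE, adjusted p = 0.00155), again with no overlap between IgG and control.

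Pcolce (ENSMUSG00000029718), which speeds the trimming of fibrillar procollagens, had 36.2, 27.8, 40.3, 37.6 and 39.5 CPM in the control libraries, 5.52, 6.92, 5.48 and 4.03 in IgG, 15.9, 6.99 and 20.2 in anti-PD-L1 and 23.5, 25.7 and 19.6 in anti-CD8a. Each IgG library was under each library of the other groups (-2.72 ± 0.26, adjusted p = 1.05e-06 against control). Spon2 (ENSMUSG00000037379), a secreted spondin, had 1.01, 0.884, 1.55, 1.08 and 1.43 CPM in the control libraries, 0.248, 0.181, 0.126 and 0.0611 in IgG, 0.286, 0.3 and 0.132 in anti-PD-L1 and 0.163, 0.0537 and 0.148 in anti-CD8a. All 3 tumour-bearing groups lay near the floor of 0.129 to 0.189 CPM that 3 counts give, with 1 to 7 counts a library, and the values of Spon2 are given as a description. Summed counts, 112 in control and 10 in IgG, gave a level 7.82-fold higher in control (95% counting interval 4.1 to 16.7).

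Fibronectin, Fn1 (ENSMUSG00000026193), the adhesive protein that integrins bind, had 54.9, 48, 71.4, 52.8 and 55.4 CPM in the control libraries, 12.7, 38.6, 12.2 and 21 in IgG, 103, 45.6 and 101 in anti-PD-L1 and 42, 46.8 and 68.9 in anti-CD8a. It fell in IgG (-1.42 ± 0.32, adjusted p = 0.00137), and IgG replicate 2, at 38.6 CPM, was highest of its group. Vcan (versican), Tnxb (tenascin X) and Ecm1 fell too, the first 2 at log2 fold changes of -2.35 ± 0.43 and -1.58 ± 0.29 and Ecm1 from 19.7 ± 4.74 to 9.85 ± 3.22 CPM. The gene that rose was Thbs1 (ENSMUSG00000040152), thrombospondin 1, a matricellular protein that can activate latent TGF-beta. Thbs1 had 6.73, 13.1, 21.5, 4 and 7.89 CPM in the control libraries, 23, 35, 61.8 and 38.6 in IgG, 43.6, 43.1 and 28.5 in anti-PD-L1 and 6.37, 10.2 and 13.6 in anti-CD8a. IgG and anti-PD-L1 were high, control and anti-CD8a low, and the lowest IgG library (23) was above the highest control library (21.5), a change of 1.90 ± 0.39 (SE, adjusted p = 0.000638). Postn (periostin) and Tgfbi stood at -0.79 ± 0.48 (SE, adjusted p = 0.166) and -0.09 ± 0.16 (SE, adjusted p = 0.646). Without IgG replicate 1, which at 11.8 CPM lay above the other IgG libraries (1.64 to 2.95), Postn was called lower, at -1.77 (adjusted p = 0.00149).

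The laminin chains did not move together in IgG. Lama2 (ENSMUSG00000019899), the alpha 2 chain of the fibre's own laminin, had 32.5, 41, 42.4, 38.1 and 41.9 CPM in the control libraries, 46.9, 47.8, 31.8 and 44.1 in IgG, 38.9, 46.1 and 52.9 in anti-PD-L1 and 30.2, 35.3 and 27.3 in anti-CD8a. Control and IgG overlapped widely (0.12 ± 0.14, adjusted p = 0.473), and anti-CD8a lay at the low end. Lamc1, the gamma 1 chain, had 71.9, 81.5, 101, 79.6 and 86.7 CPM in the control libraries, 78.8, 68.7, 81.5 and 124 in IgG, 64.5, 77.2 and 98.5 in anti-PD-L1 and 61, 57.4 and 61.4 in anti-CD8a. The beta 2 chain Lamb2 (ENSMUSG00000052911), found at neuromuscular and myotendinous junctions, had 55.2, 68, 74.1, 57.8 and 61.8 CPM in the control libraries, 57.2, 70.7, 57 and 52.2 in IgG, 72.3, 72.8 and 81.8 in anti-PD-L1 and 64.9, 62 and 76.8 in anti-CD8a. The changes of Lamc1 and Lamb2 in IgG were 0.07 ± 0.17 (SE, adjusted p = 0.728) and -0.10 ± 0.12 (SE, adjusted p = 0.519), and with upper-quartile scaling Lamb2 was called lower at -0.34 (adjusted p = 0.0309).

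Among the other laminin chains 2 fell in IgG and 1 rose. Lama4 (ENSMUSG00000019846), the alpha 4 chain of vessel and nerve laminins, had 20.6, 17.4, 22.1, 22.6 and 31.1 CPM in the control libraries, 5.15, 14.4, 7.31 and 7.15 in IgG, 13.5, 9.94 and 21.5 in anti-PD-L1 and 12.9, 18.3 and 23.9 in anti-CD8a. Lamb1 (ENSMUSG00000002900), the beta 1 chain, had 21.6, 21.8, 31.4, 26.7 and 34.6 CPM in the control libraries, 7.63, 12.6, 9.89 and 12.5 in IgG, 19.7, 15 and 25.2 in anti-PD-L1 and 14.5, 19.6 and 16.3 in anti-CD8a. Both fell without overlap with control, at -1.42 ± 0.30 (SE, adjusted p = 0.000708) and -1.36 ± 0.20 (SE, adjusted p = 3.85e-05). Lama5 (ENSMUSG00000015647), an alpha 5 chain of vessel laminins, had 13.5, 17.3, 22.1, 14.8 and 16.6 CPM in the control libraries, 47, 31.7, 61.9 and 24.6 in IgG, 17.1, 22.4 and 21.6 in anti-PD-L1 and 20, 14.4 and 27.5 in anti-CD8a. It was higher in every IgG library than in any control library (1.29 ± 0.24, adjusted p = 0.00031), with a wide spread within IgG.

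Of the genes that link the laminin sheet, 3 of 4 fell. Nid1 (ENSMUSG00000005397), nidogen 1, had 85.6, 85.9, 110, 87.6 and 121 CPM in the control libraries, 31.2, 46.7, 31.4 and 34.1 in IgG, 56.1, 61.6 and 112 in anti-PD-L1 and 60.1, 67.4 and 66.6 in anti-CD8a. Nid2 (ENSMUSG00000021806), nidogen 2, had 5.72, 6.37, 6.96, 7.14 and 9.01 CPM in the control libraries, 2.73, 2.47, 2.96 and 2.38 in IgG, 4.62, 3.94 and 5.98 in anti-PD-L1 and 3.92, 5.26 and 3.61 in anti-CD8a. For both, every IgG library lay below every library of the other groups, at -1.45 ± 0.20 (SE, adjusted p = 2.22e-05) and -1.42 ± 0.19 (SE, adjusted p = 1.7e-05) against control. Hspg2 had 92.8, 118, 146, 101 and 126 CPM in the control libraries, 49.8, 79.4, 42.7 and 53 in IgG, 59.2, 46.8 and 99.9 in anti-PD-L1 and 71.1, 80.2 and 84.4 in anti-CD8a. The highest IgG library, replicate 2, was below the lowest control library (-1.05 ± 0.22, adjusted p = 0.000738). Agrn, which clusters acetylcholine receptors at the nerve contact, stood at -0.14 ± 0.18 (SE, adjusted p = 0.512).

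By role, the median log2 fold change in IgG against control was -1.39 for the small leucine-rich proteoglycans, -1.16 for the microfibril and elastic fibre genes and -1.42 for the adhesive and matricellular genes. In the basement membrane it was -0.01 for the 6 laminin chains and -1.23 for the 4 nidogens and heparan sulfate proteoglycans, a value within the range of the interstitial roles. These medians are a description, and no test over the lists was made. Spon2 was kept in the median of the adhesive and matricellular genes and in the interstitial means below. The order of the 3 interstitial roles is therefore not a result. On the plot of class means, the mean log2 CPM of the interstitial genes was 4.79 ± 0.20 in control, 3.49 ± 0.27 in IgG, 4.32 ± 0.29 in anti-PD-L1 and 4.32 ± 0.11 in anti-CD8a (SD over libraries, n = 5, 4, 3 and 3). That of the basement membrane genes was 5.01 ± 0.18, 4.45 ± 0.14, 4.75 ± 0.32 and 4.68 ± 0.11. Summed TPM gave another picture, with Dcn alone making up 42.9% ± 3.3 of the interstitial sum in control and 46.2% ± 3.08 in anti-CD8a, but 62.1% ± 3.83 in IgG and 65.6% ± 2.07 in anti-PD-L1. The interstitial sum was 9.3 ± 0.705 times the basement membrane sum in control and 8.23 ± 0.795 times in IgG, ranges that overlapped. It was 8.53 ± 0.605 times in anti-CD8a and 12.9 ± 2 times in anti-PD-L1, where the lowest library, at 11.3, was above every library of the other groups. Without Dcn, a setting chosen after its values were seen, it was 5.3 ± 0.396 times in control, 3.11 ± 0.33 in IgG, 4.41 ± 0.562 in anti-PD-L1 and 4.58 ± 0.31 in anti-CD8a. Each IgG library (2.87 to 3.59) was then below each library of the other groups (4.02 to 5.81), and the mean of anti-PD-L1 was below that of control, the reverse of the order with Dcn.

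**Figure D2:**
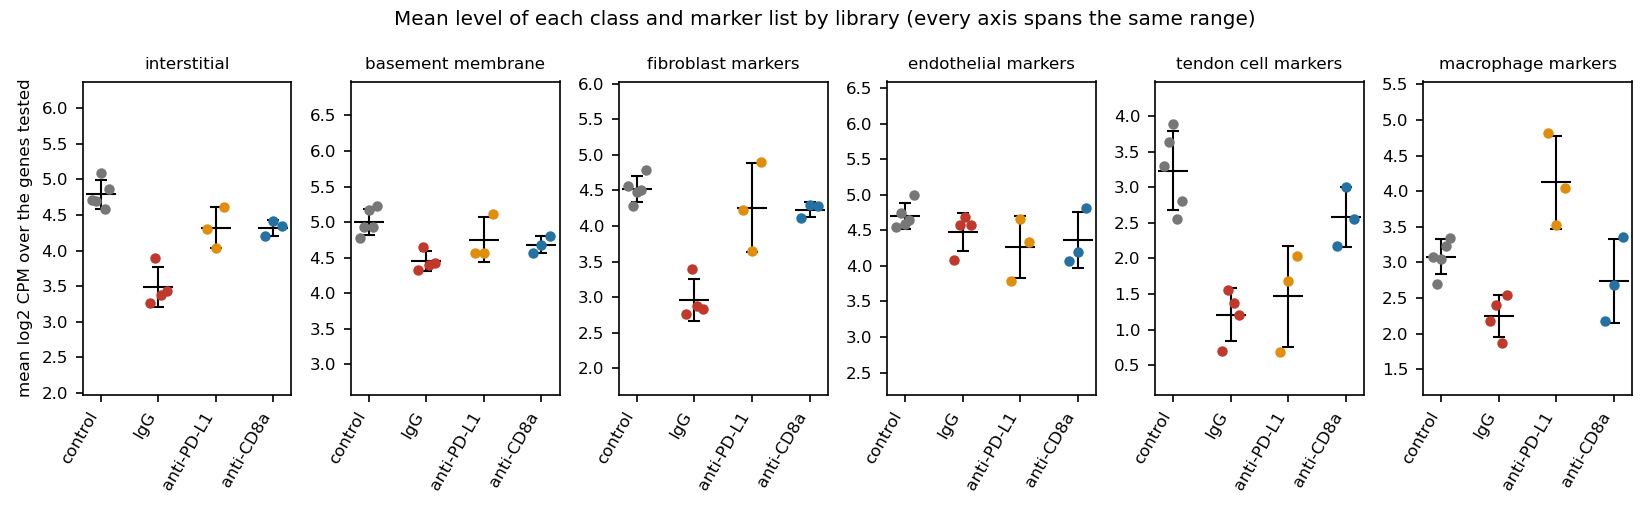
Mean log2 CPM over the tested genes of each class or marker list, 1 point per library, with the group mean (line) and SD (bars); all 6 vertical axes span the same range. Interstitial genes and fibroblast markers were lowest in IgG, at 3.49 ± 0.27 and 2.96 ± 0.29, the endothelial means overlapped in all 4 groups, and macrophage markers were highest in anti-PD-L1.

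Anti-PD-L1 against IgG asked what blocking the checkpoint did in tumour-bearing mice. Of the 27 interstitial genes 13 rose, and of the 10 basement membrane genes 3 rose and 1 fell, against 3.96% of all genes called higher and 1.54% lower. In edgeR none of the interstitial genes fell, at an unadjusted p under 0.05 as well, and DESeq2 also called 0. The median log2 fold changes were 0.85 and 0.32, beside 0.01 over all genes. Fibroblast and macrophage markers were higher in anti-PD-L1 as well (10 of 14 and 8 of 9 called higher), and their part was not tested. Fn1 rose most: its mean was 21.1 ± 12.4 CPM in IgG and 83.3 ± 32.7 CPM in anti-PD-L1 (SD, n = 4 and 3), and the log2 fold change was 1.98 ± 0.35 (SE, adjusted p = 0.00745). Small leucine-rich proteoglycans rose in 5 of 7 cases: Ogn by 1.79 ± 0.32, Podn by 1.75 ± 0.29, Lum by 1.69 ± 0.37, Bgn by 1.08 ± 0.24 and Dcn by 0.86 ± 0.17 (SE, adjusted p = 0.0126). Tgfbi (ENSMUSG00000035493), a TGF-beta-induced protein that binds integrins, had 20.2, 17, 24.9, 21.3 and 21.9 CPM in the control libraries, 22.3, 20.4, 15.5 and 21 in IgG, 39.2, 34.2 and 53.5 in anti-PD-L1 and 22.6, 18.6 and 27 in anti-CD8a. Its 3 anti-PD-L1 libraries lay above all the others (1.10 ± 0.18, adjusted p = 0.0053).

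Fbn1, Mfap5, Fbln2, Tnxb, Pcolce and Ecm1 also rose, by 1.05 ± 0.29 to 1.38 ± 0.27 in log2 apart from Fbln2, at 0.85 ± 0.21. Mfap4, Sparc, Sparcl1 and Thbs1 did not pass, at 0.22 ± 0.42, 0.15 ± 0.20, 0.00 ± 0.21 and -0.04 ± 0.43 (adjusted p from 0.642 to 0.992). In the basement membrane Nid1, Lamb1 and Nid2 rose by 1.09 ± 0.22, 0.91 ± 0.22 and 0.88 ± 0.21, and Lama5 fell, at -1.02 ± 0.28 (SE, adjusted p = 0.0467). Each of the 17 calls was lost under at least 1 of 14 alternatives, while the log2 fold change stayed at 1.79 to 2.74 for Fn1 and 1.43 to 2.38 for Lum over all 14. The calls over all genes moved as well. The 569 higher and 222 lower became 152 and 10 when IgG replicate 1 was left out, 223 and 90 when replicate 3 of that group was, and 187 and 23 when its replicate 4 was. They became 137 and 7 without anti-PD-L1 replicate 1, 153 and 5 without its replicate 3, 68 and 1 with the replicate block, and 37 and 0 with the 2 groups alone. They became 1451 and 1153 without IgG replicate 2, 1424 and 1288 without anti-PD-L1 replicate 2, and 2228 and 1985 without both, so the background share is itself uncertain. The count of 13 became 7, 7 and 8 without IgG replicate 1, 3 and 4, 5 and 4 without anti-PD-L1 replicate 1 and 3, 3 with a replicate block, and 0 with the 2 groups fitted alone, and 1 interstitial gene fell without anti-PD-L1 replicate 2. The 3 basement membrane rises became 1 without anti-PD-L1 replicate 1 and without IgG replicate 1 or 4, 5 without IgG replicate 2, 0 without anti-PD-L1 replicate 3, with the block or with the 2 groups alone, and 6 without both second replicates. The fall of Lama5 was lost under 7 of 14 alternatives, upper-quartile scaling among them.

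**Figure D3:**
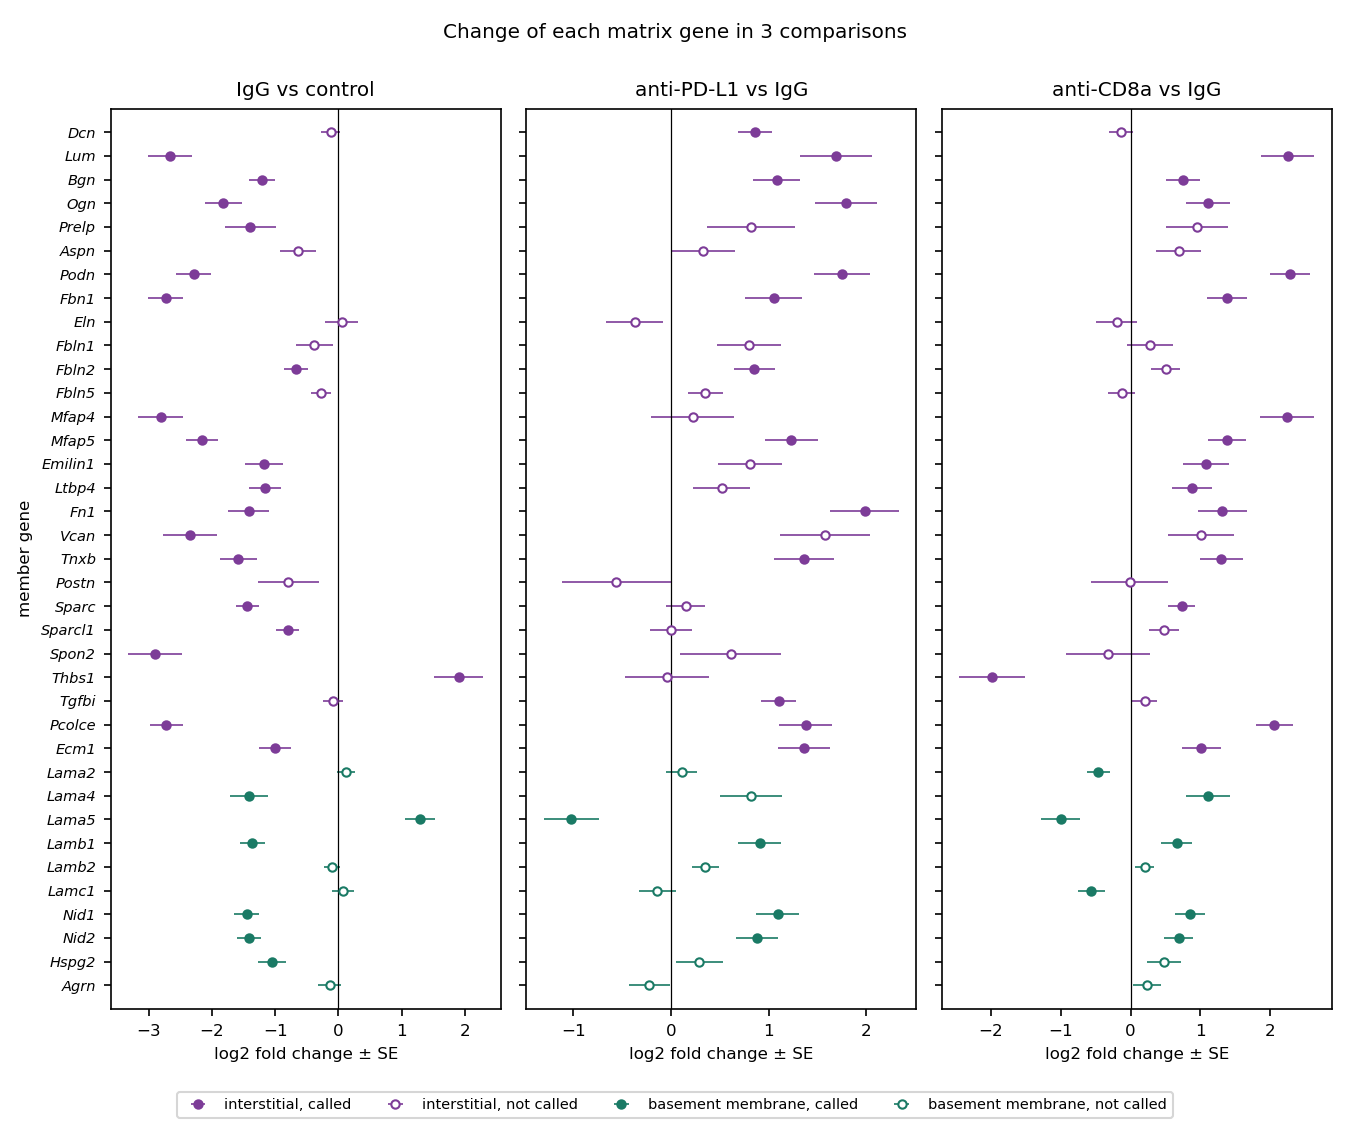
Log2 fold change with SE (horizontal axis, with its own scale in each panel) of each of the 37 tested genes (vertical axis) in 3 comparisons, of which the latter 2 share the IgG libraries; purple marks interstitial and green basement membrane genes, and filled points were called at an adjusted p under 0.05. Filled purple points lie left of 0 in IgG vs control except Thbs1, and right of 0 in the other panels except Thbs1 in anti-CD8a vs IgG.

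Anti-CD8a against IgG, which shares the IgG libraries, gave 14 interstitial genes higher and 1 lower, and 4 basement membrane genes higher and 3 lower. Over all genes 23.2% were called higher and 24.8% lower. The medians were 0.88 and 0.36, beside 0.02 over all genes. Podn and Lum rose most, from 1.59 ± 0.445 to 7.76 ± 0.787 CPM and from 5.94 ± 3.2 to 28.2 ± 5.82 CPM, log2 fold changes of 2.28 ± 0.29 (SE, adjusted p = 3.86e-05) and 2.25 ± 0.38 (SE, adjusted p = 0.000233). Mfap4 rose by 2.24 ± 0.39, Pcolce by 2.06 ± 0.27, Fbn1 by 1.38 ± 0.29 and Sparc by 0.73 ± 0.19. Dcn did not pass (-0.14 ± 0.17, adjusted p = 0.533), and Thbs1 fell, from 39.6 ± 16.2 to 10 ± 3.6 CPM (-1.98 ± 0.47, adjusted p = 0.0028).

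In the basement membrane Lama4, Nid1, Nid2 and Lamb1 rose, by 1.11 ± 0.32, 0.85 ± 0.22, 0.69 ± 0.21 and 0.66 ± 0.22, and 2 of them passed without anti-CD8a replicate 2. Lama5 fell, from 41.3 ± 16.6 to 20.6 ± 6.59 CPM (adjusted p = 0.0087), as did Lama2 and Lamc1, at -0.46 ± 0.16 (SE, adjusted p = 0.0277) and -0.56 ± 0.19 (SE, adjusted p = 0.0256). Only 1 of these 3 fell with upper-quartile scaling, with the replicate block, with the 2 groups fitted alone, without IgG replicate 4, or without any 1 of the 3 anti-CD8a libraries. Of the 22 calls in this comparison, 12 were kept under all 14 alternatives.

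Against control, anti-CD8a libraries showed few calls. Spon2, tested only through its control counts, was the 1 gene called lower, and without it 0 of 26 interstitial genes were called. Its fitted change was -3.22 ± 0.47 (SE, adjusted p = 0.039), with summed counts of 7 against 112, and the ratio was 9.83-fold higher in control (95% counting interval 4.62 to 25). Spon2 lost the call under 8 of 14 alternatives, without control replicate 1, 3, 4 or 5 or without any 1 anti-CD8a library among them. Over all genes 0.00696% were called higher and 0.00696% lower. Of the 37 log2 fold changes 31 were negative, with medians of -0.33 for interstitial and -0.42 for basement membrane genes beside 0.01 over all genes. At an unadjusted p under 0.05, edgeR gave 8 interstitial genes, Spon2 among them, and 6 basement membrane genes lower and 0 higher. The share of all genes at that threshold was not counted, so these numbers cannot be read against the 0.00696%. After adjustment DESeq2 called 2 interstitial genes lower, Spon2 and Fbn1, and 0 basement membrane genes, beside 34 of 14372 over all genes. Fbn1 stood at -1.35 ± 0.28 (SE, adjusted p = 0.178), with no overlap between the groups. It was called lower at -1.36 (adjusted p = 0.00236) with no filter, -1.37 (0.0356) with the 2 groups alone and -1.35 (0.00212) by DESeq2.

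Anti-PD-L1 against control had 3 interstitial genes higher and 8 lower, and 2 basement membrane genes lower, beside 20.8% of all genes called higher and 13.9% lower. The genes above control were Thbs1 (1.85 ± 0.41), Tgfbi (1.00 ± 0.17) and Dcn (0.74 ± 0.16). Those below were Lum, Fbn1, Mfap4, Mfap5, Sparc, Sparcl1, Spon2 and Pcolce (7 of 26 without Spon2), with Mfap4 lowest at -2.59 ± 0.39 (SE, adjusted p = 0.000234), and Nid2 and Hspg2 in the basement membrane at -0.54 ± 0.20 and -0.77 ± 0.24. Lum lost its call under 7 of 15 alternatives, among them without control replicate 1, 3, 4 or 5, and stood at -0.63 (adjusted p = 0.209) without anti-PD-L1 replicate 2. Mfap5 lost its call under 3, among them without anti-PD-L1 replicate 2, at -0.65 (adjusted p = 0.0694). For Spon2, summed counts of 16 against 112 gave a level 5.04-fold higher in control (95% counting interval 2.97 to 9.12). The 2 basement membrane falls became 1 without control replicate 2, 3, 4 or 5, 0 without anti-PD-L1 replicate 1 or 2, and 6 without anti-PD-L1 replicate 3. No basement membrane gene rose, by edgeR at an unadjusted p under 0.05 or by DESeq2 (0 in each).

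The direct test of anti-PD-L1 against anti-CD8a called 5 of the 37 genes, beside 12.1% of all genes called higher and 7.65% lower. Dcn was higher in anti-PD-L1, at 1047 ± 87.8 against 524 ± 65.7 CPM (1.00 ± 0.18, adjusted p = 0.00254). Thbs1 and Tgfbi were higher too, at 1.93 ± 0.48 (SE, adjusted p = 0.0127) and 0.90 ± 0.20 (SE, adjusted p = 0.00666), and Mfap4 was lower (-2.02 ± 0.41, adjusted p = 0.00469). Lama2 was higher at 0.57 ± 0.17 (SE, adjusted p = 0.0297), a call lost under 8 of 13 alternatives, among them without anti-PD-L1 replicate 2 or 3 and without anti-CD8a replicate 1 or 3. Thbs1 lost its call without anti-CD8a replicate 1, and Dcn, Mfap4 and Tgfbi kept theirs throughout. By edgeR no basement membrane gene was lower, at an unadjusted p under 0.05 as well, apart from 1 called without anti-PD-L1 replicate 3. DESeq2 gave 1 lower at an unadjusted p under 0.05 and 0 after adjustment. Interstitial genes lower in anti-PD-L1 numbered 3 without its replicate 3 and 2 without anti-CD8a replicate 3.

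**Figure D4:**
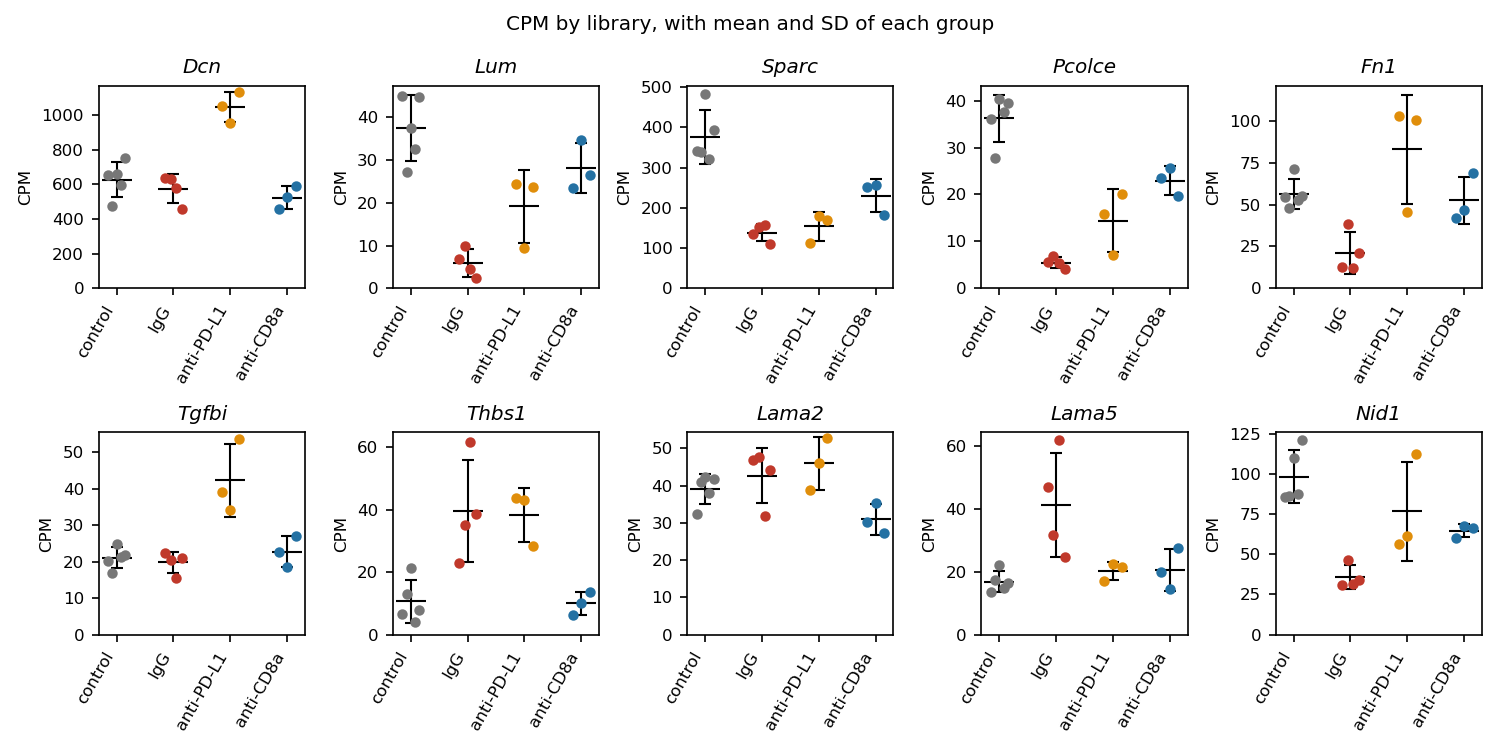
CPM of 10 matrix genes, chosen after their values were seen, in each library (points) with the group mean (line) and SD (bars); each vertical axis starts at 0. Dcn and Tgfbi stand highest in the 3 anti-PD-L1 libraries, Thbs1 is high in IgG and anti-PD-L1, and Lum, Pcolce and Nid1 are lowest in IgG.

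Genes around these matrix proteins were counted from lists, to be read against the 30.2% of all genes called higher and 28.4% lower in IgG against control, shares that several of the lists lie near. In IgG against control all 9 fibrillar and beaded collagens fell (median log2 fold change -3.79) and all 4 basement membrane collagens fell (median -1.13), with Col3a1 at -5.03 ± 0.49 and Col15a1 at -2.76 ± 0.30. Of 7 laminin receptors 2 rose and 1 fell. Dag1, dystroglycan, rose by 1.00 ± 0.17 (SE, adjusted p = 0.000154), and Itga6, the integrin alpha 6 chain, fell, at -0.97 ± 0.23 (SE, adjusted p = 0.00226). Of 20 receptors for fibronectin and other interstitial matrix 10 fell and 4 rose, with Itgb6 at -3.81 ± 0.49 and Itga4 at -3.15 ± 0.33. Among 15 tested genes that glycosylate dystroglycan so that laminin can bind it, 6 fell and 3 rose, with the kinase Pomk at -2.76 ± 0.31 (SE, adjusted p = 3.93e-06). Of 26 tested genes that build proteoglycan chains 13 fell and 3 rose, with Xylt1, which starts the chains, at -1.91 ± 0.31 and Chpf2, a chondroitin polymerising factor, at 2.47 ± 0.22. Of 16 tested TGF-beta signalling genes 6 rose and 3 fell, with Smad3, which carries the signal to the nucleus, at -2.21 ± 0.33. Of 7 tested laminin and netrin chains outside the members, 2 fell and 1 rose.

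In anti-PD-L1 against IgG, with 3.96% of all genes called higher and 1.54% lower, these lists had 3 of 9 collagens higher, 3 of 20 interstitial receptors higher, 2 of 15 dystroglycan glycosylation genes higher and 1 of 16 TGF-beta genes higher, and 1 of 26 chain synthesis genes lower. Pomk rose by 1.52 ± 0.34 and Ltbp1 by 0.60 ± 0.17, and Hs6st1 fell, at -0.93 ± 0.21. In anti-CD8a against IgG (23.2% and 24.8% of all genes) all 9 fibrillar and beaded collagens and 1 of 4 basement membrane collagens rose, with Col1a1 at 3.95 ± 0.53 and Col15a1 at 1.63 ± 0.32. Dag1 fell, at -1.12 ± 0.20, and Itga6 rose by 0.85 ± 0.26 in that comparison. In anti-PD-L1 against anti-CD8a 5 of 9 fibrillar and beaded collagens were lower (7.65% of all genes), Col1a1 at -2.56 ± 0.54 (SE, adjusted p = 0.00584).

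Markers of some of the cells that make or surround the matrix, such as fibroblasts, moved with these results, and their part was not tested. Summed over fibroblast markers, the level was 388 to 570 CPM in the control libraries and 212 to 262 CPM in the IgG libraries. It was 304 to 561 CPM with anti-PD-L1 and 351 to 400 CPM with anti-CD8a. Of the 14, 12 fell and 1 rose in IgG against control, 10 rose in anti-PD-L1 against IgG, and 8 rose and 1 fell in anti-CD8a against IgG, with Pi16 at -3.77 ± 0.48, 3.26 ± 0.50 and 3.64 ± 0.50. Over all genes 28.4% were called lower and 30.2% higher in IgG against control, and 3.96% higher in anti-PD-L1 against IgG. In anti-CD8a against IgG the shares were 23.2% higher and 24.8% lower. Tendon cell markers summed to 137 to 312 CPM in control and 69.4 to 116 in IgG, where 6 of 8 fell. With anti-PD-L1 they summed to 72.7 to 128 CPM and with anti-CD8a to 71.7 to 141 CPM. Sums follow the most abundant markers. Against IgG, 4 of the 8 rose and 0 fell in anti-CD8a (23.2% and 24.8% of all genes). In anti-PD-L1 against IgG 0 rose and 0 fell. The mean log2 CPM of the tendon cell markers was 3.23 ± 0.56 in control and 1.21 ± 0.37 in IgG (SD over libraries). It was 1.47 ± 0.70 in anti-PD-L1 and 2.58 ± 0.42 in anti-CD8a. Endothelial markers overlapped between groups, at 323 to 455, 247 to 378, 218 to 367 and 243 to 428 CPM, with 4 of 12 lower and 1 higher in IgG against control. In anti-PD-L1 against IgG no endothelial marker was called, and the smallest unadjusted p was 0.109, that of Tie1. Mural cell markers lay at 671 to 875 CPM in control and 514 to 693 in IgG (4 of 9 lower, 1 higher), and Schwann cell markers at 117 to 354 and 44.9 to 123 (6 of 9 lower, 1 higher). Schwann cell markers stayed at 55 to 169 CPM in anti-CD8a, with 1 higher and 1 lower against IgG. Of 7 satellite cell markers 4 fell and 2 rose in IgG against control, and of the 12 muscle fibre markers 4 fell and 2 rose.

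Summed over macrophage markers, the level was 66.8 to 108 CPM in the control libraries and 49 to 77.2 CPM in the IgG libraries. It was 121 to 273 CPM with anti-PD-L1 and 47.9 to 106 CPM with anti-CD8a. Of 9 tested, 8 rose in anti-PD-L1 against IgG, 8 against anti-CD8a and 6 against control. Over all genes 3.96%, 12.1% and 20.8% were called higher there. Dcn and Tgfbi were higher in each of these comparisons, and a link to macrophages was not tested. In anti-CD8a against IgG 5 macrophage markers rose and 1 fell (23.2% and 24.8% of all genes), and neither Dcn nor Tgfbi was called. In IgG against control 7 macrophage markers fell and 1 rose (28.4% and 30.2% of all genes). Adipocyte markers varied within every group, from 3.74 to 32.4 CPM in control to 22.4 to 266 in anti-PD-L1, where 4 of 5 rose against control. None of the listed markers was at 0 in every library of a group.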

How the data were processed

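RNA of 15 tibialis anterior libraries was sequenced. Per the submitters' processing notes, the tools were Trim Galore (trimming), STAR 2.7.9a (alignment) and RSEM 1.3.3 (quantification). The genome build, annotation and strand setting are not given in the sources used here, so reads of overlapping or antisense genes may be shared. The authors deposited expected counts per gene, which need not be whole, and TPM, scaled by gene length and library. Symbols were matched for 52083 of 55416 gene IDs through a GENCODE M21 name table. Groups came from the labels. The members and gene lists were chosen with earlier results of these data known.

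Expected counts were rounded, filtered by filterByExpr (14372 genes left) and fitted with edgeR 4.0.16 (R 4.3.3): TMM scaling and the quasi-likelihood test on all 4 groups in 1 fit with 11 residual degrees of freedom. P-values were adjusted by Benjamini-Hochberg over all genes tested, and a gene was called at an adjusted p under 0.05. The SE came from the size of the log2 fold change and its F statistic (change over root F). Log2 CPM uses a prior count of 2. The alternatives were other scaling, no filter, DESeq2 1.42.0, a replicate block, the 2 groups alone and leaving out libraries. The split into interstitial and basement membrane genes was a choice. For the counts and medians of the interstitial class only, a further alternative left out Fbln1, Fbln2, Sparc and Sparcl1. On simulated counts, 45.9% to 68.0% of 2-fold changes and 89.0% to 94.8% of 4-fold changes were recovered over the comparisons. Of the simulated calls 3.87% to 7.43% were false. Only 200 genes were changed there, with a smooth trend of spread and no far library, against 4335 and 4075 called in IgG against control. These rates therefore need not hold for the data. Totals per library set the precision, and intervals and floors cover counting error only.

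Values in every library were given, per role group, for the 2 genes of highest TPM and the 2 called genes of largest change. Fn1, Tgfbi, Thbs1, Lama5 and Lama2 were added after their values were seen. Of each other list, at most 2 called genes of largest change per comparison were named.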

Additional observations from a re-analysis of the deposited data

Results flagged for a closer look

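Among 76 checks of groups of 4 or 5 libraries for a library far from the rest, 5 stood out, and chance flags about 1 in 20. Fbn1 in IgG replicate 2 was at 12.8 CPM, against 7.88 to 8.37 in the other IgG libraries. Postn in IgG replicate 1 was at 11.8 CPM, against 1.64 to 2.95. Vcan in control replicate 3 was at 30.6 CPM, against 8.38 to 11.1 in the other control libraries. Agrn in control replicate 5 was at 8.74 CPM, against 6.38 to 7.01. Fbn2 in IgG replicate 4 was at 0.122 CPM and at 0 in the other IgG libraries, a difference of at most 3 counts.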

How the results depend on the processing

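In IgG against control the counts of genes called in each class kept within 1.5 times their value under all alternatives, and the basement membrane median moved to -0.84 with upper-quartile scaling, the cause of which was not tested. With the replicate block, anti-PD-L1 against IgG gave 3 interstitial and 0 basement membrane genes higher and 0 basement membrane genes lower. The block also gave 1 basement membrane gene lower in anti-CD8a against IgG and 1 in anti-PD-L1 against control, 0 interstitial genes lower in anti-CD8a against control and 0 basement membrane genes higher in anti-PD-L1 against anti-CD8a. Same-numbered libraries showed no sign of pairing: over 19 pairs the correlation of deviations ran from -0.345 to 0.18, and 2 correlated best with their own number. With so few libraries this cannot settle whether they were paired. With the 2 groups alone, anti-PD-L1 against IgG gave 0 interstitial genes higher and 0 basement membrane genes higher or lower, anti-CD8a against IgG 1 basement membrane gene lower, anti-CD8a against control 2 interstitial genes lower, and anti-PD-L1 against anti-CD8a 0 basement membrane genes higher. Upper-quartile scaling gave 0 basement membrane genes lower in anti-PD-L1 against IgG, 1 lower with a median of 0.58 in anti-CD8a against IgG, and 2 interstitial lower and 0 basement membrane higher in anti-PD-L1 against anti-CD8a. Without the filter, 1 basement membrane gene was lower in anti-PD-L1 against control and 2 interstitial genes in anti-CD8a against control. DESeq2 gave 2 interstitial genes lower in anti-CD8a against control and 2 in anti-PD-L1 against anti-CD8a. In anti-CD8a against control the 2 genes were Spon2 and Fbn1 under each of these 3 settings (2 groups alone, no filter and DESeq2). Without IgG and anti-PD-L1 replicate 2 together, anti-PD-L1 against IgG had an interstitial median of 1.24 and 6 basement membrane genes higher, and anti-PD-L1 against control had 0 basement membrane genes lower. Anti-PD-L1 against anti-CD8a then had 5 interstitial genes higher and 2 lower, 0 basement membrane genes higher, and an interstitial median of 0.22, reversed from -0.13. Leaving out 1 library at a time gave, in anti-PD-L1 against IgG, 4 to 15 interstitial genes higher and 0 to 1 lower, and 0 to 5 basement membrane genes higher and 0 to 1 lower. It gave 2 to 5 basement membrane genes higher and 1 to 3 lower in anti-CD8a against IgG, 0 to 6 lower in anti-PD-L1 against control, and 0 to 1 interstitial genes lower in anti-CD8a against control. In anti-PD-L1 against anti-CD8a it gave 1 to 3 interstitial genes lower with a median of -0.28 to 0.22 (0.22 without anti-PD-L1 replicate 2), and 0 to 1 basement membrane genes higher and 0 to 1 lower. Low counts limit Spon2 and Fbn2.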
